A study of Mus musculus with 24 samples.

Results

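The genes of this account encode the proteins of the mitochondrial ribosome in mouse lung. They were taken as every gene whose symbol in the platform annotation starts with Mrpl or Mrps followed by a number and at most 1 letter, which gave 76 of 19505 genes. Of these, 48 carry names of the large subunit (Mrpl) and 28 names of the small subunit (Mrps). Each gene was measured by 1 probe set. The genes were taken by name and not by their values, but the family was chosen with earlier results of these data known. By mean level over the arrays, 72 of the 76 lay above the median gene, while Mrpl15, Mrpl36, Mrpl54 and Mrps22 did not. The 76 genes are spread over 17 chromosomes, with 11 on chromosome 11 and 8 on chromosome 17.

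Mitochondria keep their own ribosome, which translates the few proteins that mitochondrial DNA encodes, all of them subunits of the respiratory chain and of ATP synthase. Its RNA comes from mitochondrial DNA, but all of its proteins are encoded in the nucleus, made in the cytosol and imported. Some have a counterpart in the bacterial ribosome and others occur only in mitochondria. By this division, 15 of the genes encode small subunit proteins with a bacterial counterpart and 10 encode mitochondrion-specific proteins of the small subunit. Another 30 encode large subunit proteins with a bacterial counterpart and 20 mitochondrion-specific proteins of the large subunit, among them Mrps18a and Mrps30 in spite of their names. The last, Mrps36, fits the naming rule but is now known as a subunit of the 2-oxoglutarate dehydrogenase complex.

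Expression was measured in whole lung of mice at 6 months of age, on 20 Affymetrix arrays in 4 groups. Marfan mice given sildenafil were measured on 5 arrays, Marfan mice given vehicle on 5, wild-type mice given sildenafil on 4 and wild-type mice given vehicle on 6. Marfan syndrome is an inherited disorder of connective tissue, and sildenafil inhibits an enzyme that breaks down cyclic GMP. The labels state that sildenafil was given in drinking water from 6 weeks of age, and repeat this wording for the vehicle samples. They describe neither the vehicle nor the Marfan allele, the sex or any batch. Another 4 arrays, titled as failing quality control, hold no values (1 Marfan sildenafil, 1 Marfan vehicle and 2 wild-type sildenafil). Array numbers follow the groups, so a batch in that order cannot be told apart from group. Nowhere do the labels state that the arrays of a group came from separate mice, and p-values then measure only the spread between these samples.

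Many promoters of such genes carry sites for nuclear respiratory factor 1 (NRF1), for ETS family factors such as the GA-binding protein, also called nuclear respiratory factor 2, or for YY1. A promoter window here is the 300 bases from 250 before to 50 after a gene's start in RefSeq (GRCm38.p6). There were 73 windows for 67 of the 76 genes, and both strands were searched for the letters of each motif, counting overlapping matches. The ETS letters end, and the YY1 letters begin, with the same 3 bases, so these motifs can share bases. The NRF1 motif, GCGC and TGCGC with any 1 base between them, occurred in 13 of the 73 windows (17.8%), against 4.6% of all 32851 windows and 6.38% of the 21263 windows of protein-coding genes. For the ETS letters CCGGAAG it was 25 windows (34.2%), against 8.86% of all and 11.6% of the protein-coding windows. The YY1 letters AAGATGG were found in 13 windows (17.8%), against 6.34% of all and 6.24% of the protein-coding windows. At least 1 of the 3 motifs was present in 42 windows (57.5%), against 18% of all windows and 21.7% of those of protein-coding genes. A match of letters is no evidence of binding, which was not measured here.

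Promoters of 5 genes named in the comparisons below were picked for printing with results of these data known. Others named there, among them Mrpl48 and Mrpl13, are not printed, and whether a motif goes with a difference was not tested. The 5 promoters are printed to show these letters where they occur, with the matches in capitals. That of Mrpl30 lies at chr1:37890227-37890526 on the plus strand, with an NRF1 match that begins 83 bases before the start. In Mrpl12, at chr11:120484387-120484686 on the plus strand, the NRF1 match begins 81 bases before the start. The window of Mrpl22, at chr11:58171414-58171713 on the plus strand, has an ETS match 53 bases before the start. Mrpl35, at chr6:71823735-71824034 on the minus strand, has a pair of YY1 matches in opposite orientations, 23 and 36 bases after the start. In Mrps14, at chr1:160194965-160195264 on the plus strand, none of the 3 motifs matched.
Mrpl30: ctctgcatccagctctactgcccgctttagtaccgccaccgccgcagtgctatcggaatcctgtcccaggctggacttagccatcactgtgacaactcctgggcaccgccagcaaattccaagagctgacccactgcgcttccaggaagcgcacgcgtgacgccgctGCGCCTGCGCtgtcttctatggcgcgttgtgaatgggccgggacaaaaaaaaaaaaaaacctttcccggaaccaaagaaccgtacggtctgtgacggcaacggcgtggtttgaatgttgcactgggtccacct
Mrpl12: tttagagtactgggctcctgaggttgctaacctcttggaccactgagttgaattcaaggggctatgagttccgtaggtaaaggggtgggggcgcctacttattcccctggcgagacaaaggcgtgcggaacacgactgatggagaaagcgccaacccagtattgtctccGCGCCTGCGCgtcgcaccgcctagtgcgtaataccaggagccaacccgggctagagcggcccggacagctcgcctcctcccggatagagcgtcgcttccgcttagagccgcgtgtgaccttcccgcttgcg
Mrpl22: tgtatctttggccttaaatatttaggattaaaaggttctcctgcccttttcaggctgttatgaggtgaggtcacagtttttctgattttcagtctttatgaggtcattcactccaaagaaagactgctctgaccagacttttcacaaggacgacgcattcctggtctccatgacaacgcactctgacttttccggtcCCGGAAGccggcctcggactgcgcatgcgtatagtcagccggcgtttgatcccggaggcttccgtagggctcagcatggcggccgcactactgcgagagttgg
Mrpl35: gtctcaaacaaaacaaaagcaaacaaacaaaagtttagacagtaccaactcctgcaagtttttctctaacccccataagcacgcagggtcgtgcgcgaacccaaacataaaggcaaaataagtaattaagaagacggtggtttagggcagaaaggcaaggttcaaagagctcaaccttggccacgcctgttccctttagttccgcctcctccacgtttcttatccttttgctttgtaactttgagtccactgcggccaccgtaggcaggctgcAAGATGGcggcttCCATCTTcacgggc
Mrps14: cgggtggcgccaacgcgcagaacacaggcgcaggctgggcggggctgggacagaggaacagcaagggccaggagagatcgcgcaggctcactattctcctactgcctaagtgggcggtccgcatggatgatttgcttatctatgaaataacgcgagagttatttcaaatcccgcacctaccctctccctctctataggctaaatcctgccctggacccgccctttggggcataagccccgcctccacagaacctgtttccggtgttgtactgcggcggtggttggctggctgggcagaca

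Some features of the arrays bear on these genes. The brightness of an array, taken as the median of its deposited values over all transcript probe sets, ran from 5.32 to 6.45 log2 units. It averaged 6.06 ± 0.28 on the Marfan sildenafil arrays, 6.03 ± 0.13 on the Marfan vehicle arrays and 6.05 ± 0.14 on the wild-type sildenafil arrays, against 5.66 ± 0.19 on the wild-type vehicle arrays (SD). The wild-type vehicle group was thus the dimmest on average. Marfan sildenafil array 9 (5.73) and Marfan vehicle array 20 (5.80) nevertheless lay within its range (5.32 to 5.83). The vehicle comparison of genotypes and the wild-type comparison of treatments therefore also compared a group brighter on average with a dimmer one. All values below were therefore quantile-normalized, which gives every array the same distribution, and the family's median in each comparison between groups is also given with brightness in the model. Values of single genes, of other families and of pathway lists come from the fit without brightness unless stated. Array 9 of the Marfan sildenafil group stood apart in cell type markers: relative to their means over the arrays, its cardiac muscle markers lay at -2.31 log2 units, its endothelial markers at -0.99, its type 1 alveolar markers at -0.83 and its macrophage markers at 1.49. On the other 19 arrays these shifts ran from -0.25 to 0.68, from -0.17 to 0.32, from -0.23 to 0.22 and from -0.44 to 0.67. Adipose (-0.65), ciliated (-0.58) and type 2 alveolar markers (0.21) of array 9 also lay outside the range of the other arrays, though by less. Type 2 alveolar markers, all 6 of them measured, averaged between 11.73 and 12.12 on every array, as lung would have. In whole lung, a smaller share of a cell type and less RNA per cell cannot be told apart.

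The 76 genes varied together from array to array. A score was formed for each array as the median, over the 76 genes, of the value minus the gene's mean over the 20 arrays, less the same median over all genes. Scores were -0.226, 0.1, 0.029, -0.137 and -0.172 on Marfan sildenafil arrays 8 to 12, and -0.041, 0.167, 0.094, -0.039 and -0.058 on Marfan vehicle arrays 20 to 24. They were 0.009, -0.088, -0.062 and -0.157 on wild-type sildenafil arrays 1, 4, 5 and 6, against 0.088, -0.02, 0.134, 0.223, -0.006 and 0.329 on wild-type vehicle arrays 13 to 18. Sildenafil arrays of both genotypes lay mostly below 0 and wild-type vehicle arrays mostly above, with overlap between every pair of groups that shares a genotype. The extremes were wild-type vehicle array 18, where 69 of the 76 genes exceeded their own means, and Marfan sildenafil array 8, where 5 did.

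**Figure D1:**
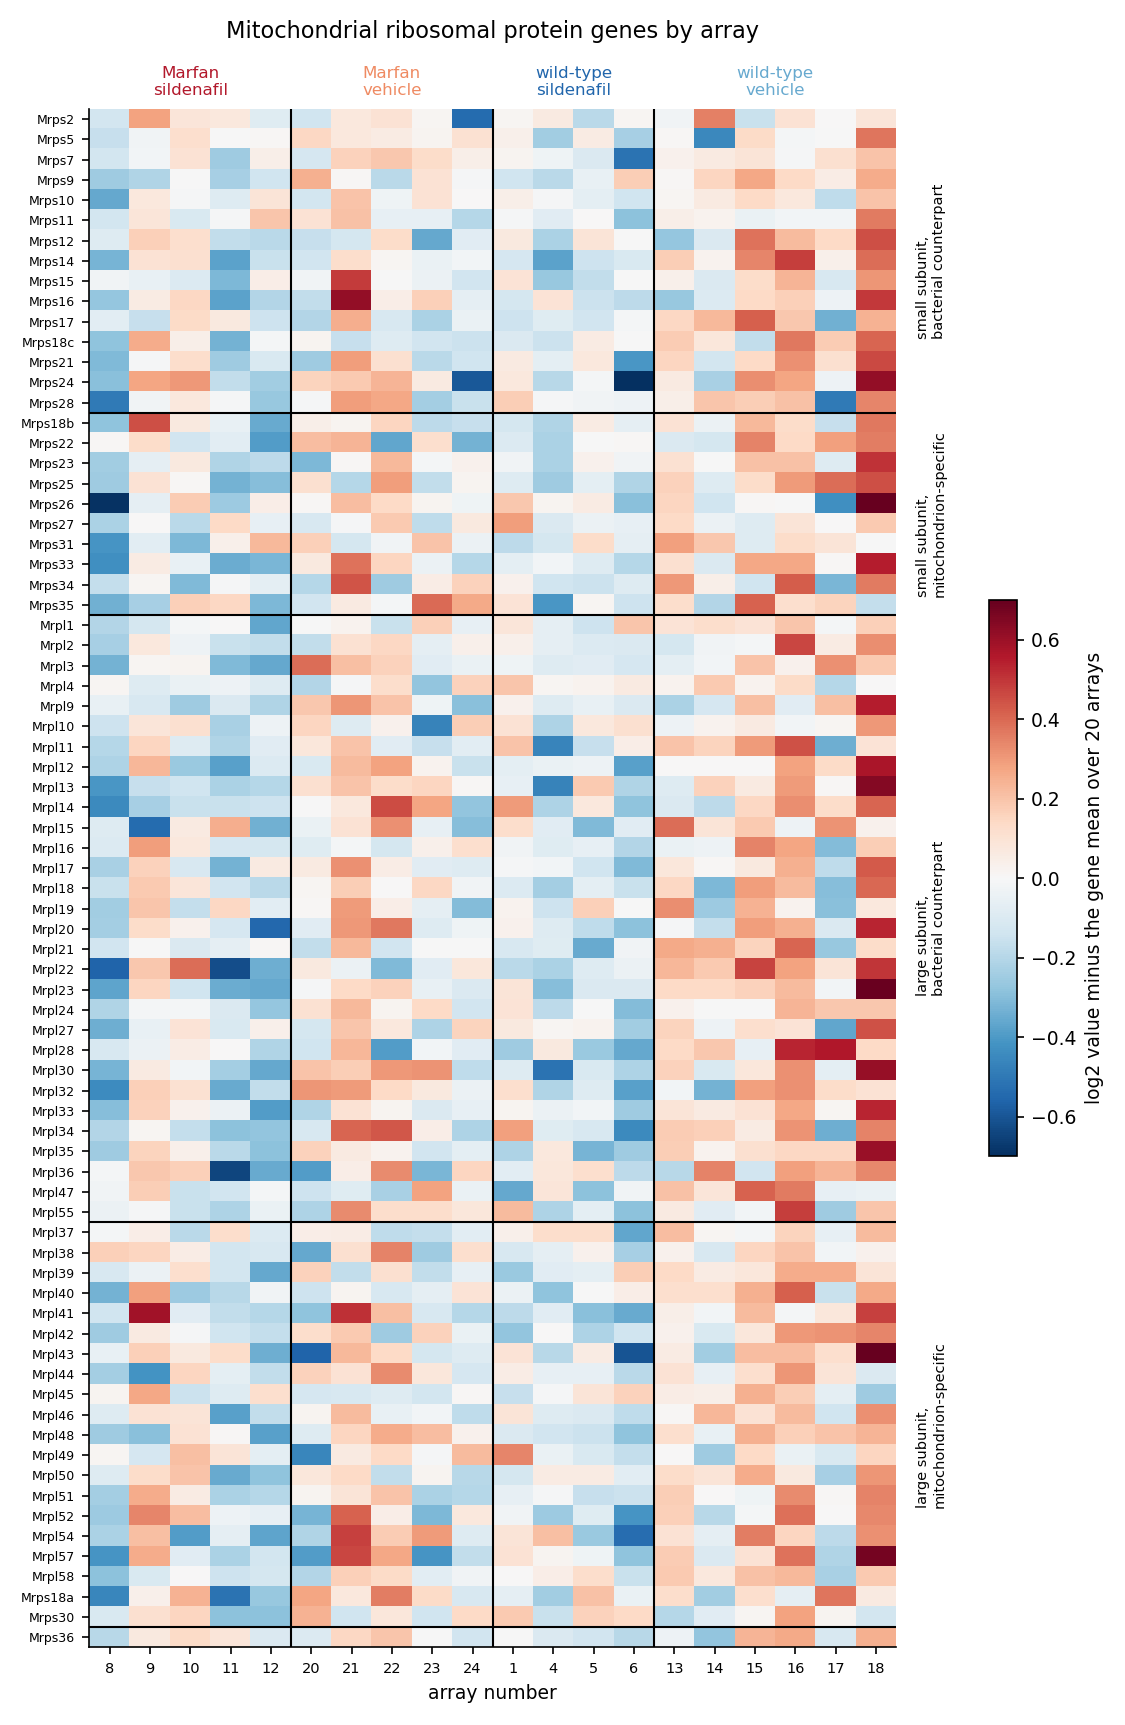
Each row is 1 of the 76 genes, each column 1 of the 20 arrays, and the colour gives the quantile-normalized log2 value minus the gene's mean over the arrays (red above, blue below, values beyond the scale in its darkest colour). Some columns mostly share a colour: array 18 is red for 69 genes and array 8 is blue for all but 5. Others are mixed, such as array 17, with 38 genes above their means.

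By group, the score averaged -0.08 ± 0.14 for Marfan sildenafil, 0.02 ± 0.10 for Marfan vehicle, -0.08 ± 0.07 for wild-type sildenafil and 0.12 ± 0.13 for wild-type vehicle (SD, n = 5, 5, 4 and 6). The means of the wild-type groups lay 1 SD or more of either group apart, while those of both sildenafil groups nearly coincided. On the deposited values the order changes, since the median level of the 76 genes there was 7.42 ± 0.22 for Marfan sildenafil, 7.5 ± 0.18 for Marfan vehicle and 7.43 ± 0.17 for wild-type sildenafil, against 7.24 ± 0.18 for wild-type vehicle.

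**Figure D2:**
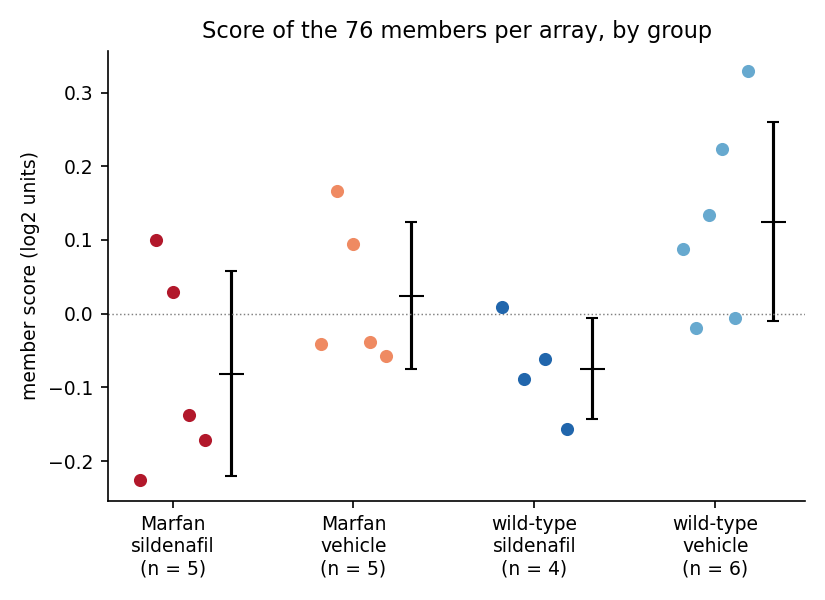
Points are single arrays, and the bars beside them give the group mean with 1 SD; the vertical axis is the score of the 76 genes in log2 units after quantile normalization. Wild-type vehicle has the highest mean (0.12) and both sildenafil groups the lowest (-0.08), with overlapping arrays, and on the deposited values wild-type vehicle has the lowest median level.

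Sildenafil was compared with vehicle first in wild-type mice, which gave the median farthest from 0 among the 4 comparisons between groups. After quantile normalization 73 of the 76 genes had a lower mean with sildenafil, against 50.4% of all genes, and the median difference was -0.20 log2 units, against 0.00 for all genes. On the deposited values the median difference was instead 0.18, against 0.28 for all genes, so the direction of the family turned with the scaling while its position below all genes did not. None of the 76 passed an adjusted p of 0.05 in limma, as none of all 19505 genes did (0%). At an unadjusted p under 0.05, 21 genes were lower with sildenafil, against a background of 4.45% of all genes, and 0 were higher, against 4.65%. Since the 76 genes varied together, such counts, here and below, are not counts of independent results. By role, 4 of 15 small subunit proteins with a bacterial counterpart, 2 of 10 mitochondrion-specific ones, 11 of 30 large subunit proteins with a bacterial counterpart and 4 of 20 mitochondrion-specific ones were among these 21.

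Mrps14, the counterpart of a bacterial protein in the head of the small subunit, had the smallest p of the family here. It measured 8.31, 8.05, 8.28 and 8.32 log2 units in wild-type sildenafil lungs, against 8.6, 8.45, 8.77, 8.91, 8.46 and 8.82 in wild-type vehicle lungs. Every sildenafil array lay below every vehicle array, by at least 0.13. The difference was -0.43 ± 0.12 (SE), with a limma adjusted p of 0.335. In Marfan lungs the same gene measured 8.1, 8.53, 8.54, 8.05 and 8.27 with sildenafil, against 8.29, 8.55, 8.44, 8.38 and 8.41 with vehicle, and there the groups overlapped.

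Groups did not overlap in wild-type lungs for 5 of the 76 genes, all lower with sildenafil, against a background of 1.3% of all genes, and for 0 that were higher, against 1.42%. Besides Mrps14 these were Mrpl12, Mrpl22, Mrpl41 and Mrpl48. Mrpl48, a mitochondrion-specific protein of the central protuberance of the large subunit, measured 8.69, 8.66, 8.64 and 8.51 with sildenafil, against 8.91, 8.74, 9.04, 8.96, 8.99 and 9.03 with vehicle. Its values were tight, with all sildenafil arrays under the lowest vehicle array, and the difference was -0.32 ± 0.10 (SE, limma adjusted p = 0.38). Mrpl22, counterpart of a bacterial protein that lines the exit tunnel of the nascent peptide, measured 6.28, 6.25, 6.38 and 6.43 with sildenafil, against 6.7, 6.65, 6.94, 6.75, 6.56 and 6.97 with vehicle. The gap between its groups was 0.133. Mrpl41, specific to mitochondria, averaged 6.73 ± 0.12 with sildenafil and 7.08 ± 0.19 with vehicle (SD, n = 4 and 6).

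Mrpl35, a large subunit protein with a bacterial counterpart, measured 7.58, 7.87, 7.47 and 7.55 with sildenafil, against 7.97, 7.82, 7.91, 7.94, 7.94 and 8.4 with vehicle. Only the second sildenafil array, numbered 4, reached into the vehicle range, and the difference was -0.38 ± 0.12 (SE, limma adjusted p = 0.379). At the other end, Mrps30, Mrpl4 and Mrpl49 were the only 3 members with a higher mean with sildenafil, by 0.10, 0.05 and 0.02. None of these 3 differences exceeded its standard error.

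**Figure D3:**
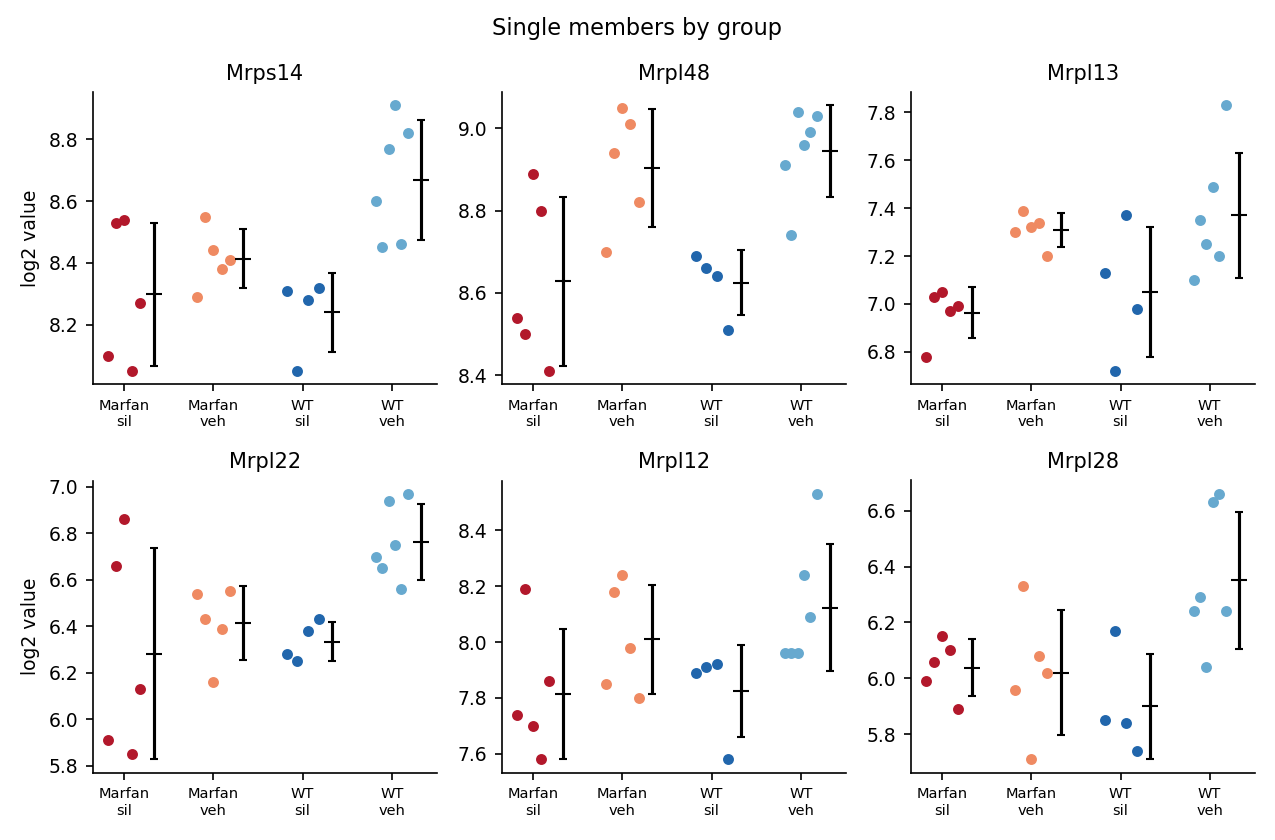
Quantile-normalized log2 values of 6 genes on single arrays (points), with the group mean and 1 SD beside them, for Marfan sildenafil, Marfan vehicle, wild-type sildenafil and wild-type vehicle (sil, sildenafil; veh, vehicle; WT, wild-type). Wild-type sildenafil arrays of Mrps14, Mrpl48, Mrpl22 and Mrpl12 lie below all wild-type vehicle arrays, and Marfan sildenafil arrays of Mrpl13 lie below all Marfan vehicle arrays; on the deposited values the wild-type differences of Mrps14 and Mrpl48 are -0.096 and 0.001.

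With array brightness in the model, the median difference of the family between wild-type sildenafil and wild-type vehicle was -0.09, with 61 genes below 0, against 50.8% of all genes. The number lower at an unadjusted p under 0.05 was then 5, against a background of 3.01%, and 0 were higher, against 2.5%. For Mrpl48 the difference stood at -0.36 ± 0.13 in that fit, for Mrps14 at -0.27 ± 0.14 and for Mrpl22 at -0.08 ± 0.18 (SE), so the value of Mrpl22 moved most toward 0 among these 3 and that of Mrpl48 did not. Without wild-type vehicle array 18, the dimmest, the median difference was -0.17 and 10 genes were lower at that p, against 3.24% of all genes. Relative to all genes, the median came nearest 0, at -0.155, when wild-type sildenafil array 6 was left out.

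In Marfan mice the median difference between sildenafil and vehicle was -0.11, against -0.01 for all genes. On the deposited values it was -0.04, against 0.04 for all genes, the same sign. The 2 treatment comparisons use different arrays throughout. In Marfan mice 62 of the 76 genes had a lower mean with sildenafil, against 51.6% of all genes. No gene passed an adjusted p of 0.05 in limma (background 0%). At an unadjusted p under 0.05, 9 were lower, against 3.41% of all genes, and 0 were higher, against 3.29%. Of these 9, 5 encode large subunit proteins with a bacterial counterpart, 3 mitochondrion-specific proteins of the large subunit and 1 a mitochondrion-specific protein of the small subunit.

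Mrpl13, counterpart of a bacterial protein that binds early in large subunit assembly, measured 6.78, 7.03, 7.05, 6.97 and 6.99 in Marfan sildenafil lungs, against 7.3, 7.39, 7.32, 7.34 and 7.2 in Marfan vehicle lungs. It was the only one of the 76 (1.32%) whose groups did not overlap here. The background was 0.492% of genes lower and 0.385% higher without overlap, so this count lies close to it. The difference was -0.35 ± 0.13 (SE), with a limma adjusted p of 0.711. In wild-type lungs Mrpl13 measured 7.13, 6.72, 7.37 and 6.98 with sildenafil, against 7.1, 7.35, 7.25, 7.49, 7.2 and 7.83 with vehicle. The wild-type groups overlapped, with array 5 of the sildenafil group above 4 of the 6 vehicle arrays.

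Mrpl48 had the smallest p of the family in Marfan lungs. Its values there were 8.54, 8.5, 8.89, 8.8 and 8.41 with sildenafil, against 8.7, 8.94, 9.05, 9.01 and 8.82 with vehicle. The difference of -0.28 ± 0.10 (SE, limma adjusted p = 0.706) was close to that in wild-type lungs, and the interaction, which tests the difference between both, was 0.04 ± 0.14 (limma adjusted p = 0.986). Mrpl3, whose bacterial counterpart lies close to the peptidyl transferase centre, measured 6.89, 7.23, 7.24, 6.91 and 6.86 with sildenafil, against 7.61, 7.43, 7.38, 7.14 and 7.17 with vehicle. Of its sildenafil arrays, 3 lay below all vehicle arrays and the other two inside the vehicle range. The 3 members with the smallest p among those higher with sildenafil were Mrpl45, at 0.12 ± 0.10, Mrps2, at 0.14 ± 0.13, and Mrps12, at 0.09 ± 0.14 (SE).

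Brightness was nearly equal in both Marfan groups, and with it in the model the median difference was -0.10, with 60 genes below 0 (51.9% of all genes) and 9 lower at an unadjusted p under 0.05 (background 3.66%, and 0 higher, background 3.66%). The result leaned on single arrays. Without array 9, which stood apart in its markers, the median difference was -0.14 and 14 genes were lower at that p, against 3.43% of all genes. Without array 8, the lowest in the family's score, the median was -0.08 and 3 genes were lower, against 3.11%. Relative to all genes, the median came nearest 0, at -0.067, when Marfan vehicle array 21 was left out.

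Averaged over both genotypes, sildenafil against vehicle gave the lowest adjusted p of the family among the 7 contrasts between groups. The median difference was -0.15, against 0.00 for all genes, 72 of 76 genes were below 0 (51% of all genes), and 25 were lower at an unadjusted p under 0.05, against 5.73% of all genes, with 0 higher, against 5.17%. On the deposited values the median was 0.05, against 0.16 for all genes. No adjusted p in limma was under 0.05 for any of the 19505 genes (0%), and the lowest in the family was 0.116, for Mrpl48, at -0.30 ± 0.07 (SE). Mrpl30, a large subunit protein with a bacterial counterpart, stood at -0.37 ± 0.10 and Mrpl13 at -0.33 ± 0.09 (limma adjusted p = 0.168 for each).

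Mrpl30 measured 6.55, 6.94, 6.86, 6.64 and 6.52 in Marfan sildenafil lungs, against 7.08, 7.05, 7.18, 7.19 and 6.7 in Marfan vehicle lungs. In wild-type lungs it measured 6.79, 6.36, 6.77 and 6.66 with sildenafil, against 7.04, 6.77, 6.96, 7.2, 6.81 and 7.49 with vehicle. In both genotypes the sildenafil values sat low with 1 vehicle array reaching down among them, array 24 in Marfan lungs and array 14 in wild-type lungs. With brightness in the model, 8 of the 76 were lower at an unadjusted p under 0.05 (background 4.29%) and 0 higher (4.19%), 67 were below 0 (52.2% of all genes), and the median difference was -0.10. The 4 genes with a higher mean with sildenafil in this average include Mrpl45, Mrpl49 and Mrps2, at 0.05, 0.03 and 0.03.

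**Figure D4:**
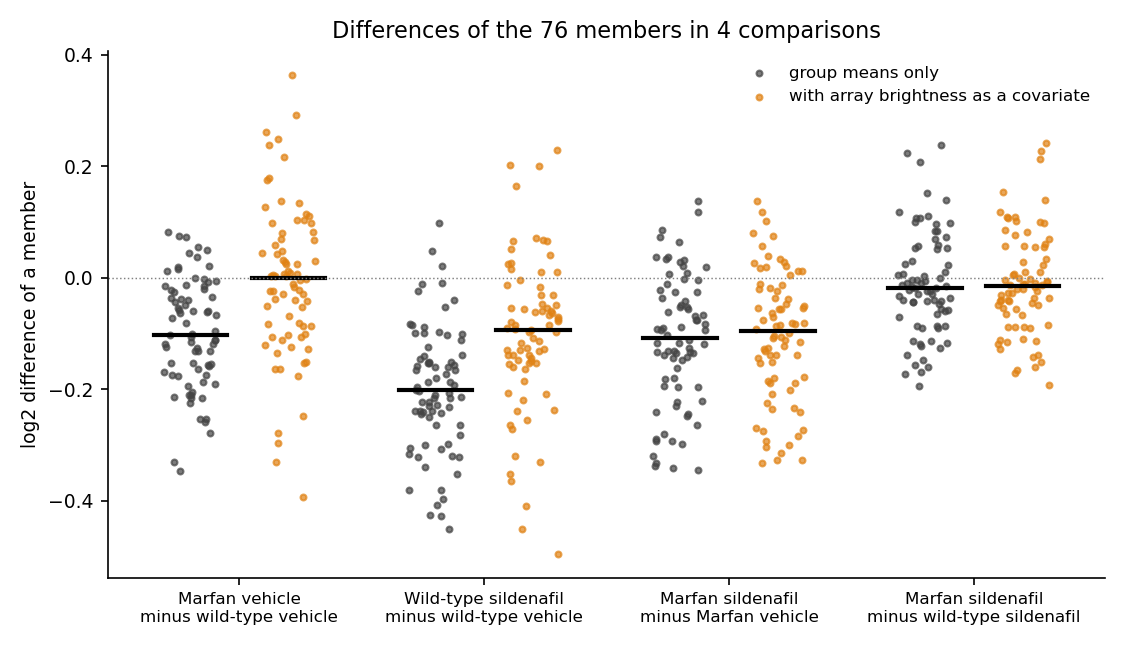
Each point is the log2 difference of 1 of the 76 genes, from group means alone (grey) and with array brightness as a covariate (orange), in 4 comparisons, with the median as a black line; all values are quantile-normalized. The median for Marfan vehicle against wild-type vehicle is -0.10 in grey and 0.00 in orange, and for wild-type sildenafil against wild-type vehicle -0.20 and -0.09; on the deposited values both medians are above 0, as they are for all genes.

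Marfan and wild-type mice were then compared under vehicle. After quantile normalization the family's median difference was -0.10, against -0.01 for all genes, with 65 of 76 genes below 0 (51.2% of all genes). This comparison shares its wild-type vehicle arrays with the treatment comparison in wild-type mice and its Marfan vehicle arrays with that in Marfan mice. On the deposited values the median was 0.22, against 0.25 for all genes, and with brightness in the model it was 0.00, with 38 genes below 0 (51.1% of all genes). In limma 0 genes passed an adjusted p of 0.05 (0% of all), 5 were lower at an unadjusted p under 0.05, against 2.78% of all genes, and 0 were higher, against 3.48%. With brightness in the model 2 were lower, against 3.52%, and 1 was higher, against 3.71%.

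Mrpl28, a large subunit protein with a bacterial counterpart, measured 5.96, 6.33, 5.71, 6.08 and 6.02 in Marfan vehicle lungs, against 6.24, 6.29, 6.04, 6.63, 6.66 and 6.24 in wild-type vehicle lungs. The groups overlapped, with arrays 16 and 17 the high ones in wild-type lungs, and the difference was -0.33 ± 0.14 (SE, limma adjusted p = 0.789). With brightness in the model the value for Mrpl28 was again -0.33, whereas those of Mrps14 and Mrpl22 went to -0.11 and -0.02, having been -0.25 ± 0.11 and -0.35 ± 0.15 without it. Mrpl22 was also the one gene whose groups did not overlap (background 0.267% lower and 0.261% higher). It measured 6.54, 6.43, 6.16, 6.39 and 6.55 in Marfan vehicle lungs, against the wild-type vehicle values given above, with a gap of 0.01. The members with the smallest p among those higher in Marfan lungs were Mrps5, Mrps18a and Mrpl32, at 0.07, 0.08 and 0.07. Mrpl32 encodes a protein matured by a mitochondrial protease, as known from yeast and mouse.

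Under sildenafil, Marfan and wild-type lungs lay close together for these genes. The median difference was -0.02, against -0.01 for all genes, 48 of 76 genes were below 0 (51.2% of all genes), and in limma 0 were lower and 0 higher at an unadjusted p under 0.05, against 2.03% and 1.87% of all genes. With brightness in the model these counts were again 0 and 0, against 2.24% and 2.12%. The 3 with the smallest p among the lower were Mrpl1 at -0.16, Mrpl58 at -0.14 and Mrpl14 at -0.19. Among the higher they were Mrpl52 at 0.24 ± 0.15 (SE), Mrpl41 at 0.22 and Mrps24 at 0.21. Marfan sildenafil array 9 took part in the value of Mrpl41, at 7.54 against 6.75 to 6.87 on the other 4 arrays of its group, and without it the difference was 0.08. Mrpl4, another tunnel protein by its bacterial counterpart, was lower in Marfan lungs without overlap, by a gap of 0.002 (background 0.749%), and no member was higher without overlap (0.677%).

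Averaged over both treatments, the Marfan minus wild-type median was -0.05, against -0.01 for all genes (0.11 and 0.12 on the deposited values), and with brightness in the model it was -0.02. There were 60 genes below 0 (51.8% of all genes), and in limma 0 genes were lower and 0 higher at an unadjusted p under 0.05, against 2.55% and 2.8%. The named members were Mrpl1, Mrpl58 and Mrpl22, at -0.14, -0.12 and -0.20, and in the other direction Mrps5, Mrps7 and Mrpl41, at 0.08, 0.05 and 0.06.

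Whether the effect of sildenafil differed between genotypes was tested as the interaction. Its median over the family was 0.08, against 0.00 for all genes, with 21 of 76 below 0 (50.4% of all genes), and -0.21, against -0.24 for all genes, on the deposited values. In limma 1 gene was higher at an unadjusted p under 0.05, against 1.96% of all genes, and 0 were lower, against 2.51%. This gene was Mrpl28, at 0.47 ± 0.20 (SE, limma adjusted p = 0.984). It measured 5.99, 6.06, 6.15, 6.1 and 5.89 in Marfan sildenafil lungs, close to the Marfan vehicle values above, while wild-type sildenafil lungs had 5.85, 6.17, 5.84 and 5.74, mostly below the wild-type vehicle values. Mrps14 and Mrpl52 followed at 0.31 ± 0.16 and 0.37 ± 0.20, and the lowest p below 0 belonged to Mrps30, Mrps18a and Mrpl14, at -0.22, -0.24 and -0.18. The family's median depended on both the dim and the odd array: it was 0.03 without wild-type vehicle array 18, 0.04 without Marfan sildenafil array 9 and 0.00 with brightness in the model.

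Some proteins have known places in the ribosome and are described whatever their values. The stalk of the large subunit, which draws in translation factors, is built from the products of Mrpl10, which anchors it, Mrpl11, at its base, and Mrpl12, which forms it and in human cells also binds the mitochondrial RNA polymerase. Mrpl12 measured 7.74, 8.19, 7.7, 7.58 and 7.86 in Marfan sildenafil lungs, against 7.85, 8.18, 8.24, 7.98 and 7.8 in Marfan vehicle lungs. In wild-type lungs it measured 7.89, 7.91, 7.92 and 7.58 with sildenafil, against 7.96, 7.96, 7.96, 8.24, 8.09 and 8.53 with vehicle. The wild-type groups did not overlap, by a gap of 0.038, and the difference was -0.30 ± 0.13 (SE, limma adjusted p = 0.501), or -0.06 ± 0.15 with brightness in the model.

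With brightness in the model, the difference between wild-type sildenafil and wild-type vehicle lungs was -0.24 ± 0.18 for Mrpl11 and 0.16 ± 0.14 for Mrpl10 (SE), and differences between the 3 genes were not tested. Mrpl10 averaged 7.58 ± 0.14 in Marfan sildenafil lungs and 7.59 ± 0.26 in Marfan vehicle lungs, and 7.64 ± 0.16 in wild-type sildenafil lungs and 7.68 ± 0.12 in wild-type vehicle lungs (SD). For Mrpl11 these means were 6.82 ± 0.14 and 6.91 ± 0.14 in Marfan lungs, with sildenafil and with vehicle, and 6.82 ± 0.29 and 7.06 ± 0.27 in wild-type lungs, with sildenafil and with vehicle (SD). All these groups overlapped.

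Mrps12, part of the decoding centre, averaged 6.46 ± 0.17 in Marfan sildenafil lungs, 6.37 ± 0.17 in Marfan vehicle lungs, 6.47 ± 0.14 in wild-type sildenafil lungs and 6.63 ± 0.28 in wild-type vehicle lungs (SD). Its wild-type vehicle arrays were spread from 6.22 to 6.94 and took in the values of all other groups but 1 array. For Mrps2, counterpart of a bacterial protein of the small subunit, the 4 means in the same order were 6.54, 6.40, 6.47 and 6.56, and Marfan vehicle array 24 was low at 5.96.

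Mrpl45, which in human mitochondria holds the ribosome to the inner membrane, averaged 8.19 ± 0.17, 8.07 ± 0.06, 8.18 ± 0.14 and 8.19 ± 0.18 in that order (SD). All its groups overlapped. Mrpl58, a hydrolase that frees peptides from stalled ribosomes, averaged 8.91 ± 0.10, 9.04 ± 0.15, 9.05 ± 0.12 and 9.15 ± 0.17 (SD). Marfan sildenafil lungs held its lowest mean and wild-type vehicle lungs its highest, with overlap.

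The paralogs Mrps18a, Mrps18b and Mrps18c encode related proteins, of which the Mrps18a product lies in the large subunit and the others in the small. Mrps18a measured 6.41, 6.9, 7.11, 6.35 and 6.6 in Marfan sildenafil lungs, against 7.14, 6.94, 7.22, 7.0 and 6.75 in Marfan vehicle lungs, a difference of -0.34 ± 0.15 (SE, limma adjusted p = 0.725). Arrays 8 and 11 were the low ones. The difference of Mrps18b was 0.00 ± 0.14 in the same comparison and that of Mrps18c 0.04 ± 0.13 (SE), so neither shared it, although a difference between paralogs was not tested. Between Marfan vehicle and wild-type vehicle lungs the order was another, with Mrps18a at 0.08 ± 0.14, Mrps18b at -0.13 ± 0.13 and Mrps18c at -0.28 ± 0.13 (SE). The order was the same with brightness in the model, where the values were 0.36 ± 0.16 for Mrps18a, 0.07 ± 0.15 for Mrps18b and -0.03 ± 0.14 for Mrps18c (SE). Mrps18a was then the 1 member higher at an unadjusted p under 0.05 (limma adjusted p = 0.657), and Mrps18b had turned sign. For Marfan sildenafil against Marfan vehicle lungs, Mrps18a stood at -0.31 ± 0.13 in that fit (SE).

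Mrps36, the member that is no ribosomal protein in current naming, averaged 7.73 ± 0.14, 7.75 ± 0.14, 7.63 ± 0.08 and 7.79 ± 0.23 in Marfan sildenafil, Marfan vehicle, wild-type sildenafil and wild-type vehicle lungs (SD). None of its differences between groups passed an unadjusted p of 0.05.

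The family's relation to array brightness was examined in its own right. Across the 20 arrays, which share brightness with group, the score of the family and the brightness had a Pearson correlation of -0.657 and a Spearman correlation of -0.592. Without arrays 18 and 11, the 2 farthest from the median brightness, these were -0.456 and -0.47, and with group means taken out of both measures -0.456 and -0.414. Among the 6 wild-type vehicle arrays alone they were -0.577 and -0.6. These are descriptions, since the arrays fall into groups of unequal brightness.

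**Figure D5:**
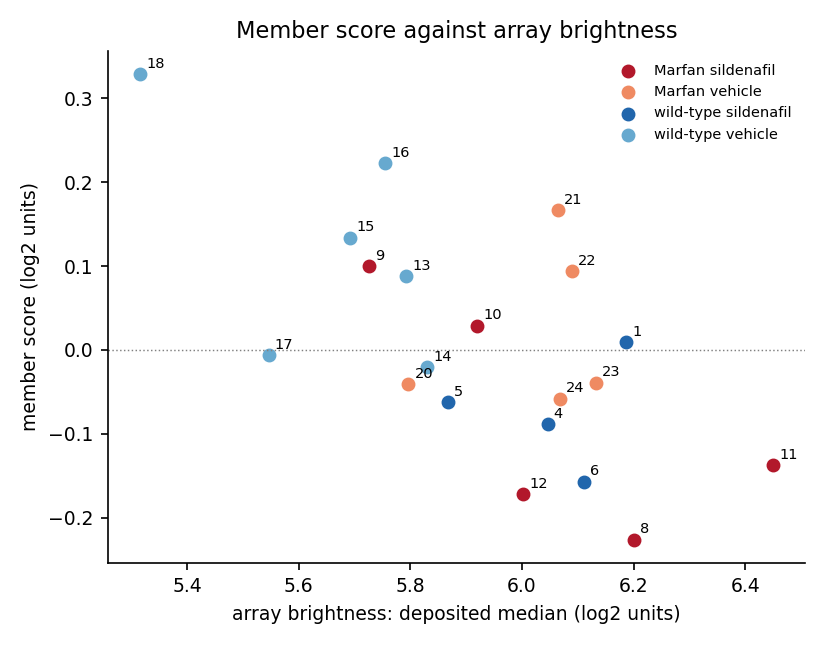
Each point is 1 array, labelled by its number and coloured by group; the horizontal axis is the median of the deposited log2 values and the vertical axis the score of the 76 genes after quantile normalization. Wild-type vehicle array 18 is the dimmest (5.32) and has the highest score (0.33), and Marfan sildenafil arrays 8 and 11 are the 2 brightest and lie below 0.

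Gene by gene, 72 of the 76 correlated negatively with brightness over the 20 arrays, with a median of -0.429, against 9762 of 19505 genes and a median of -0.001. The closest relations were those of Mrps18c (-0.82) and Mrpl22 (-0.809). Within groups the slope of a member on brightness had a median of -0.25 log2 units per unit of brightness, against 0.01 for all genes, with 59 of 76 below 0 (49.4% of all genes). On the deposited RMA values, before the quantile normalization done here, the median slope was 0.69, against 0.82 for all genes. Brighter arrays there gave these genes higher values, but less so than other genes.

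In limma no member's slope within groups passed an adjusted p of 0.05, against 0.0359% of all genes, the lowest in the family being 0.193. At an unadjusted p under 0.05, 19 members had a negative slope, against 5.84% of all genes, and 1 a positive slope, against 6.79%. Mrpl22 had the steepest, at -0.87 ± 0.27 (SE), followed among named genes by Mrps18a at -0.75 ± 0.26 and Mrps25, a mitochondrion-specific protein of the small subunit, at -0.61 ± 0.21. The exception was Mrpl15, one of the 4 members below the median gene in level, at 0.63 ± 0.28, with Mrpl4 and Mrpl21 next at 0.26 and 0.28.

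Fitted over all 20 arrays without group means, 7 members had a slope below 0 at a limma adjusted p under 0.05, against 0.764% of all genes. They were Mrpl22 at -0.98, Mrps25 at -0.72, Mrpl35 at -0.66, Mrps18c at -0.64, Mrps14 at -0.65, Mrpl23 at -0.68 and Mrps33 at -0.64, with adjusted p from 0.0103 to 0.045. In this fit brightness and the dim wild-type vehicle group cannot be told apart. Of the genes lower without overlap in wild-type sildenafil lungs, Mrps14 and Mrpl22 are among these 7, while Mrpl12, Mrpl41 and Mrpl48 are not. Mrpl48 had a slope of -0.25 ± 0.17 in the same fit and 0.11 ± 0.20 within groups (SE). Mrpl28 had the largest difference of the family between the wild-type groups, at -0.45, with means of 5.90 with sildenafil and 6.35 with vehicle. It is not among the 7 either, with a slope of -0.47 ± 0.21 (SE, limma adjusted p = 0.268).

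How closely a member followed the rest was measured as its correlation with the median of the other members over the 20 arrays after group means were subtracted. These correlations had a median of 0.574 and ran from -0.315 to 0.934, with 4 of 76 below 0, whereas genes outside the family had a median of -0.019. Mrps33, Mrpl20, Mrpl33, Mrpl23 and Mrpl57 followed it most closely, at 0.934, 0.866, 0.857, 0.854 and 0.852. The 4 below 0 were Mrps31 (-0.315), Mrpl15 (-0.161), Mrpl45 (-0.114) and Mrpl47 (-0.065). The members were also less variable than most genes, with a median SD within groups of 0.19 log2 units, against 0.26 for all genes.

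The 5 genes outside the family with the highest correlation with its median, in the same measure over 20 arrays, were Ndufb6 (0.941), Polr1d (0.931), Atp5md (0.925), Rps25 (0.919) and Ndufa6 (0.916). Ndufb6 and Ndufa6 encode subunits of complex I, Atp5md a subunit of ATP synthase, Polr1d a subunit shared by RNA polymerases I and III, and Rps25 a protein of the cytosolic ribosome.

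Set beside the most similar families, the 76 genes ran nearly in parallel. The score of 83 genes of the respiratory chain and ATP synthase correlated with that of the 76 at 0.98 over the 20 arrays and at 0.969 within groups, and that of 63 cytosolic ribosomal protein genes at 0.941 and 0.906. These scores share arrays, brightness and normalization. For wild-type sildenafil against wild-type vehicle lungs, the median differences of the respiratory chain and cytosolic ribosomal genes were -0.22 and -0.24, with 37 of 83 and 40 of 63 genes lower at an unadjusted p under 0.05, against 4.45% of all genes. For Marfan sildenafil against Marfan vehicle lungs they were -0.10 and -0.17, with 5 and 17 such genes, against 3.41%. A difference between the families was not tested.

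Marker genes of some cell types moved with the score within groups and others did not. Over the 20 arrays after subtraction of group means, the score was correlated with the mean of each marker list. The correlation was -0.634 for 5 of 6 type 1 alveolar markers and -0.593 for 6 of 6 endothelial markers. It was 0.511 for 4 of 5 lymphocyte, 0.484 for 4 of 6 macrophage and -0.434 for 7 of 7 cardiac muscle markers. For type 2 alveolar, ciliated, adipose and club cell markers the correlations were 0.00, -0.042, -0.138 and -0.203. Without array 9, an alternative chosen after seeing the data, type 1 alveolar (-0.574), endothelial (-0.558) and lymphocyte markers (0.649) gave similar values. Those of macrophage (0.256) and cardiac muscle markers (-0.092) were nearer 0 without it, and those of ciliated (0.528) and type 2 alveolar markers (-0.33) farther from 0. Mean endothelial marker levels ran from 9.16 to 10.3 in Marfan sildenafil lungs, 10.08 to 10.33 in Marfan vehicle lungs, 10.28 to 10.47 in wild-type sildenafil lungs and 9.98 to 10.3 in wild-type vehicle lungs. For type 1 alveolar markers these ranges were 10.38 to 11.38, 10.99 to 11.41, 11.18 to 11.43 and 11.1 to 11.34 in the same order. All measured markers of both lists lay above the median gene in level. For lymphocyte and macrophage markers it was 3 of 4 each, for cardiac muscle markers 6 of 7 and for adipose markers 2 of 5. The part of cell composition in the family's differences was not tested.

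The rest of the mitochondrial translation pathway was described from lists chosen by function. The first holds proteins of the same ribosome under other names. Of 4 measured, 3 had a lower mean in wild-type sildenafil than in wild-type vehicle lungs, against 50.4% of all genes. At an unadjusted p under 0.05 in limma, 0 were higher, against 4.65% of all genes, and 1 was lower, against 4.45%. The lower one was Chchd1 of the small subunit, at -0.41 ± 0.15 (SE, limma adjusted p = 0.456). Gadd45gip1, of the large subunit, stood at -0.35 ± 0.20 and Dap3, a GTP-binding protein of the small subunit, at -0.03 ± 0.10 (SE). In Marfan lungs Chchd1 stood at -0.25 ± 0.15 and Gadd45gip1 at -0.27 ± 0.19 with sildenafil against vehicle (SE).

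Among 14 translation factors and regulators of mitochondrial messenger RNA, 9 were below 0 in wild-type sildenafil against wild-type vehicle lungs (50.4% of all genes). Their median was -0.06. At an unadjusted p under 0.05 in limma, 0 were higher, against 4.65% of all genes, and 2 were lower, against 4.45%. These were Slirp, which stabilises mitochondrial messenger RNAs together with Lrpprc, at -0.46 ± 0.15, and Taco1, a translational activator of a cytochrome oxidase subunit, at -0.38 ± 0.14 (SE, limma adjusted p = 0.38 and 0.425). In Marfan lungs 2 of the 14 were lower with sildenafil at that p, against 3.41% of all genes, and 0 were higher, against 3.29%. The lower ones were Mtrf1, named as a release factor, at -0.47 ± 0.18 and Mtif3, an initiation factor, at -0.35 ± 0.16 (SE). Tufm, the elongation factor that delivers transfer RNAs, stood at 0.34 ± 0.14 and Mrrf, the recycling factor, at -0.22 ± 0.09 in the vehicle comparison of Marfan with wild-type lungs (SE, limma adjusted p = 0.789 for each).

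Then came 22 genes of ribosome assembly and RNA modification and 16 mitochondrial aminoacyl-tRNA synthetases. In wild-type sildenafil against wild-type vehicle lungs their medians were -0.04 and -0.10. Rpusd4, a pseudouridine synthase, stood at 0.39 ± 0.17, Mettl15, a ribosomal RNA methyltransferase, at -0.36 ± 0.17 and Rars2, the arginyl-tRNA synthetase, at -0.28 ± 0.12 (SE). Under vehicle, in Marfan against wild-type lungs, Dhx30, an RNA helicase, stood at 0.27 ± 0.12, and Mterf4 and Mterf3, which bind mitochondrial nucleic acids, at -0.22 ± 0.10 and -0.19 ± 0.09 (SE). No gene of either list passed an adjusted p of 0.05 in limma.

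For 12 regulators of mitochondrial transcription and biogenesis, the median difference between wild-type sildenafil and wild-type vehicle lungs was -0.02. In limma 0 were lower and 0 higher at an unadjusted p under 0.05, against 4.45% and 4.65% of all genes. Averaged over genotypes, Gabpb1, a subunit of the GA-binding protein, was at 0.22 ± 0.07 with sildenafil against vehicle (SE, limma adjusted p = 0.239). Tfam, the packaging and transcription factor of mitochondrial DNA, was at -0.23 ± 0.11 and Nrf1 at -0.18 ± 0.09 (SE, limma adjusted p = 0.441 and 0.491). In Marfan lungs 1 of the 12 was higher with sildenafil at an unadjusted p under 0.05, against 3.29% of all genes, and 1 was lower, against 3.41%. These were Gabpb1 at 0.26 ± 0.10 and Nrf1 at -0.28 ± 0.13 (SE, limma adjusted p = 0.722 and 0.738).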

How the data were processed

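RNA of whole lung was measured on 24 Affymetrix arrays, of which 20 hold values and 4 failed quality control. The deposited values are log2 expression per probe set, made by the authors with RMA in Affymetrix Expression Console, per the submitters' processing notes (version not given in the sources used here). Arrays have no read depth, and their number limits the precision. An RNA input of 700 pg is given for every array with values, and its part in the spread was not tested. Of 29129 table entries, 6923 controls were left out. The 22206 transcript probe sets were quantile-normalized over the 20 arrays, because deposited medians differed between arrays. The probe set with the highest mean stood for each of the 19505 genes named by 1 symbol. Models with 4 group means (16 residual degrees of freedom) were fitted in limma 3.58.1 (R 4.3.3) with a variance trend and Benjamini-Hochberg adjustment over all genes, and were tested on simulated data. The alternatives were array brightness as a covariate, array weights, deposited values, median centring, genes above the median level alone, no variance trend, the mean of probe sets, the compared groups alone, and leaving out each array. Genes are named where they had the 3 smallest p-values in a direction in a comparison, for their place in the ribosome, or from lists of other proteins of the same pathway. Genes without overlap between groups, those with the strongest or weakest correlations, and those past the threshold in the slope without group means were also named after their values were seen. The genes and lists were chosen with earlier results of these data known.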

Additional observations from a re-analysis of the deposited data

Results flagged for a closer look

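Of 136 groups of 4 to 6 values examined (brightness, the family's score and 32 of the genes, each in 4 groups), 13 held a value far from the others of its group by Dixon's criterion, which chance meets in about 1 of 20 groups. Array 20 was the dim one of the Marfan vehicle group, with a deposited median of 5.797, the others lying from 6.065 to 6.132. In Marfan sildenafil lungs, Mrpl14 was low on array 8 at 6.759 (others 6.971 to 7.057) and Mrpl41 high on array 9 at 7.537 (others 6.746 to 6.875).

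In Marfan vehicle lungs array 24 accounted for 3 of the 13: Mrpl30 at 6.702 (others 7.054 to 7.188), Mrps24 at 5.912 (6.568 to 6.744) and Mrpl45, high at 8.171 (8.035 to 8.068). In wild-type sildenafil lungs array 4 was low for Mrpl10 at 7.407 (7.695 to 7.74), Mrps14 at 8.052 (8.277 to 8.319) and Mrps30 at 6.323 (6.625 to 6.656), and array 6 for Mrpl12 at 7.583 (7.889 to 7.919). In wild-type vehicle lungs the dim array 18 was high for Mrpl10 at 7.928 (7.59 to 7.687) and Mrpl35 at 8.401 (7.824 to 7.97), and array 17 low for Mrpl58 at 8.824 (9.118 to 9.267).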

How the results depend on the processing

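No paired analysis was possible because array numbers run on over the groups, which share none. Between alternatives, the family's median relative to all genes moved by less than the SD of the score within groups (0.118; 0.598 for the slope), a weak limit that also admits the move from -0.097 to 0.006 between vehicle groups with brightness in the model. Leaving out 1 array gave relative medians from -0.228 to -0.155 for wild-type sildenafil against wild-type vehicle, -0.143 to -0.067 for Marfan sildenafil against Marfan vehicle and -0.126 to -0.056 for Marfan vehicle against wild-type vehicle, with 10 to 30, 3 to 14 and 1 to 8 genes lower at an unadjusted p under 0.05, against 3.15% to 5.14%, 2.95% to 3.87% and 2.28% to 3.49% of all genes. The count at a limma adjusted p under 0.05 was 0 except for the slope on brightness, where it was 7 without group means and 41 of 76 on the deposited values, which keep the shift of the whole array and call 52.3% of all genes. Signs turned on the deposited values for Mrpl28 (0.022), Mrps14 (0.022) and Mrpl22 (0.003) between vehicle groups, Mrpl48 (0.001) between wild-type groups, Mrpl1 (0.037) and Mrpl58 (0.014) for genotype averaged over treatments, and the slopes of Mrpl22 (0.133), Mrps18a (0.209) and Mrps25 (0.337). With brightness in the model they turned for Mrpl4 (-0.054) and Mrpl49 (-0.078) between wild-type groups and Mrpl49 (-0.026) for averaged sildenafil, and without group means for the slope of Mrpl21 (-0.162). Median centring turned Mrpl4 (-0.008) and Mrpl49 (-0.032) between wild-type groups. Leaving out 1 array turned Mrps5 (-0.019 to 0.147) and Mrpl32 (-0.007 to 0.124) between vehicle groups, Mrpl49 between wild-type groups (-0.093 to 0.08), Mrpl49 (-0.03 to 0.057) and Mrps2 (-0.029 to 0.056) for averaged sildenafil, and Mrps7 (-0.008 to 0.083) and Mrpl41 (-0.013 to 0.098) for averaged genotype. The cause was not tested.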
